A study of Saccharomyces cerevisiae S288C with 32 samples.

Results

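The data are the 8 poly(A) RNA-seq libraries of untreated wild-type Saccharomyces cerevisiae in a series of 32 libraries. These libraries were chosen by their labels, but with earlier results of these data known, the large PHO84 difference among them. They fall into 4 libraries sequenced on flowcell 1 and 4 sequenced on flowcell 2. All 8 carry the same labels in every other respect: strain S288C, genotype WT, and a vehicle of sterile water for 45 min in rich medium (YPD) at room temperature, with the replicates numbered 1 to 4 on each flowcell. Each flowcell also carried 4 wild-type libraries treated with the proline analog azetidine-2-carboxylic acid (AZC) at 2 mg/mL, and the remaining libraries were labelled zuo1 on flowcell 1 and not5 on flowcell 2, 4 with AZC and 4 with vehicle each. Each vehicle set is the baseline for the treated and mutant libraries of its flowcell, and the question here was how far 2 sets of nominally identical cultures differed in their basal transcriptome. Each flowcell carried its own set of cultures, so flowcell and culture set cannot be told apart. The labels call the libraries biological replicates without saying how the cultures were started, so the tests speak of the spread among these libraries, which may be partly technical.

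Wild-type vehicle cultures of flowcell 1 had high levels of the phosphate starvation genes, and those of flowcell 2 had low levels. Yeast sense intracellular phosphate through inositol pyrophosphates, which bind SPX domains. When phosphate is short, the inhibitor Pho81 blocks the cyclin-dependent kinase complex Pho80-Pho85, and the transcription factor Pho4, no longer phosphorylated, stays in the nucleus. There Pho4, with Pho2, binds CACGTG and CACGTT elements and raises transcription of high-affinity phosphate transporters, secreted phosphatases, the vacuolar polyphosphate synthase and the regulators of the pathway itself.

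The sequences upstream of the 5 coding genes with the largest fold change and no near-identical copy are shown because they hold the elements that define this regulon. Each is 300 bases, from 500 to 201 bases before the start codon, read 5′ to 3′ toward the gene from the RefSeq R64 genome. The windows lie on the minus strand at chrXIII:26001-26300 for PHO84, chrVIII:375301-375600 for SPL2, chrII:798723-799022 for PHO89, chrIV:1022522-1022821 for PHM6 and chrXVI:517219-517518 for VTC3. The PHO84 window overlaps 2 other annotated genes. Capitals mark CACGTG as well as CACGTT, which reads AACGTG on the other strand.
PHO84: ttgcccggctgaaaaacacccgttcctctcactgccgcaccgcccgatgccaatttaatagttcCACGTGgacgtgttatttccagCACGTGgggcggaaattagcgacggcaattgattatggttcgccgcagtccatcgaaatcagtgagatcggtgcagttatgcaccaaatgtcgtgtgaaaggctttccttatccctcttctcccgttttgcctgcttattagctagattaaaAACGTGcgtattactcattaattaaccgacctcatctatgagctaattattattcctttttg
SPL2: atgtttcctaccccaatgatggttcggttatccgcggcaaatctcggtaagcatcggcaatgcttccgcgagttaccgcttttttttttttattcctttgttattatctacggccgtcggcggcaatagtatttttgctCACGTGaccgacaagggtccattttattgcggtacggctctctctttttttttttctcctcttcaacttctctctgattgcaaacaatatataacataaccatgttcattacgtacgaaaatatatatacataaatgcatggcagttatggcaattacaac
PHO89: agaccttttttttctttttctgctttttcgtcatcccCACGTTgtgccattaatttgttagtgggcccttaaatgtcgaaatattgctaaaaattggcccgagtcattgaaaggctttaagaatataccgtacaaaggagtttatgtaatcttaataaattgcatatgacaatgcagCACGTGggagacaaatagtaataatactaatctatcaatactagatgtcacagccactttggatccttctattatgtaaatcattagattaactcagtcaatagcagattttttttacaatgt
PHM6: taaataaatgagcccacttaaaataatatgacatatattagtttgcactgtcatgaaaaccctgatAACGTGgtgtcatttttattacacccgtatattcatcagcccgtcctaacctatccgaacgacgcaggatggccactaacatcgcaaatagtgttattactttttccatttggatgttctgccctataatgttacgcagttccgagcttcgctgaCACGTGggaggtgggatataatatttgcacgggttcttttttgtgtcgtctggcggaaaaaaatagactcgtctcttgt
VTC3: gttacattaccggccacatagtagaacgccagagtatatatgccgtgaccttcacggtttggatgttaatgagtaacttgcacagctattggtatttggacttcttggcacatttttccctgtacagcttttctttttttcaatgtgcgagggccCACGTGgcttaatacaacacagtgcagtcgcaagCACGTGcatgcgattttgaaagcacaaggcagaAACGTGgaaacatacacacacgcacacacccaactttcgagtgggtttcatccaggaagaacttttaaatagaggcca

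Each of the 5 windows held at least 1 CACGTG. In PHO84 it began 436 and 414 bases before the start codon, in SPL2 361, in PHO89 323, in PHM6 279, and in VTC3 345 and 311. Both strands of the same window were searched for the 2 motifs, which do not overlap each other in these letters, upstream of all 5959 coding genes with a full window. CACGTG was found in 4.31% of these windows and CACGTT in 10.4%, and 14% had either. Of the 16 phosphate regulon genes called higher below, 12 had CACGTG (75%), 11 had CACGTT (68.8%) and 14 had either (87.5%), VTC1 and VTC4 being those without. Of the 5 regulon genes not called, 2 had either motif (40%). VTC3 and CTF19 are divergent neighbours whose windows overlap, and PHO11 and PHO12 are near-identical, so these windows are not independent. A match describes letters and is not evidence of binding. The list is one of Pho4 targets, so a high share of these elements was built into it and says nothing about the flowcells.

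Library totals were 22.1 to 29.6 M estimated reads on flowcell 1 and 66.3 to 68.9 M on flowcell 2, with no overlap (exact permutation test, two-sided, p = 0.0286, the smallest that 4 against 4 libraries can give). Ribosomal RNA records took 1.47% ± 0.81 of the counts on flowcell 1 and 1.56% ± 1.6 on flowcell 2 (SD, n = 4 each; exact permutation p = 0.943). Replicate 3 of flowcell 2 stood apart, with 3.95% ribosomal RNA, against 0.626 to 0.963% in the other 3 of its set. No 2 libraries of a set agreed within counting noise. By the receptor genes the mating type matched a MATa strain on both flowcells: STE2, the alpha-factor receptor, had 692 ± 66.4 and 795 ± 78.0 CPM (the count of a gene per M counts of its library), and STE3, the a-factor receptor of MATalpha cells, had 3.46 ± 1.06 and 2.37 ± 0.601 CPM (flowcell 1, then flowcell 2, SD, n = 4 each). Of the biosynthetic genes commonly deleted in laboratory strains, LEU2, URA3 and MET17 were listed at 0 in all 8 libraries, while HIS3 had 24.7 ± 3.06 and 24.1 ± 0.395 CPM in the same order. The a-factor genes MFA1 and MFA2 were also listed at 0 in all 8, although MATa cells express them, and why was not tested. The 5 a-specific genes tested summed to 1212 to 1477 CPM on flowcell 1 and 1381 to 1713 CPM on flowcell 2. The 3 alpha-specific genes tested summed to 37.7 to 42.4 and 35.6 to 48.4 CPM. ZUO1 and NOT5, intact by the label, had 1105 ± 43.3 and 191 ± 12.4 CPM on flowcell 1 and 1009 ± 91.9 and 180.2 ± 6.12 CPM on flowcell 2.

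Across 5770 genes tested, 893 (15.5%) differed between the flowcells at an adjusted p under 0.05 by edgeR's quasi-likelihood test with Benjamini-Hochberg adjustment, and these are the genes termed called. Of them 411 (7.12% of those tested) were higher on flowcell 1 and 482 (8.35%) lower. The differences were small for most: the median absolute log2 fold change was 0.12 over all genes and 0.34 over the called genes. Only 24 called genes (0.416%) differed at least 2-fold, 15 higher (0.26%) and 9 lower (0.156%), and 12 of the 15 higher were phosphate regulon genes. The number of calls depended on single libraries: 397 without flowcell 1 replicate 3, 435 without flowcell 2 replicate 4, 570 without flowcell 2 replicate 2 and 595 without flowcell 2 replicate 3.

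**Figure D1:**
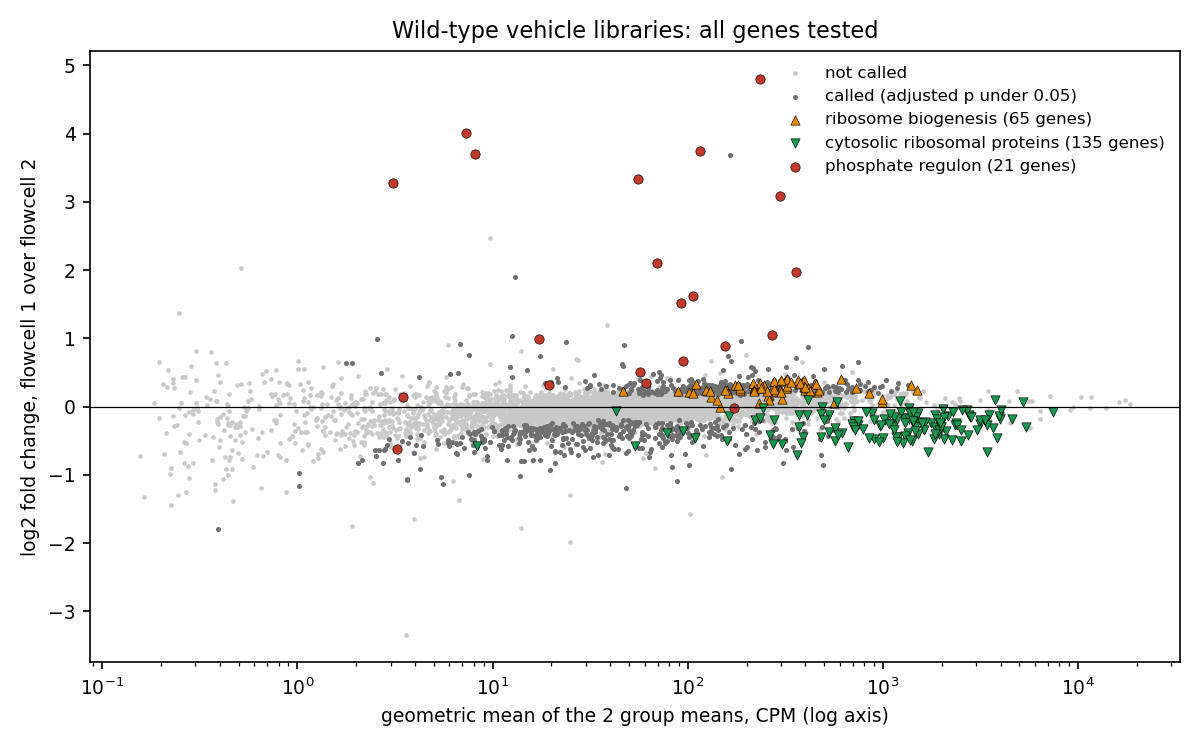
Log2 fold change of every gene tested (vertical axis, flowcell 1 over flowcell 2) against the geometric mean of both group means in CPM (log axis), with called genes in dark grey and the phosphate regulon, ribosome biogenesis and cytosolic ribosomal protein genes marked. Of the 21 phosphate genes 16 were called higher, up to 4.81 for PHO84, and the uncalled ones, down to -0.62, lie among the other genes. The ribosome-related genes form bands near 0.

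The phosphate regulon list held 21 genes, all of them expressed above the filter. Of these 16 were called higher on flowcell 1 and 0 lower, and the median log2 fold change was 1.52, against 7.12% called higher and a median of 0.00 over all genes. In each of the 16, all 4 libraries of flowcell 1 lay above all 4 of flowcell 2. Such separation held in either direction for 20.7% of all genes tested and for 781 of the 893 called. It therefore adds little to the calls, which were made on the same libraries. Fewer cells expressing these genes and less RNA per cell cannot be told apart in bulk cultures. The summed level of the 21 genes was 3837 to 5954 CPM on flowcell 1 and 1132 to 1359 CPM on flowcell 2. All CPM values up to the comparison of all groups are on the scale of the 8 vehicle libraries.

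**Figure D2:**
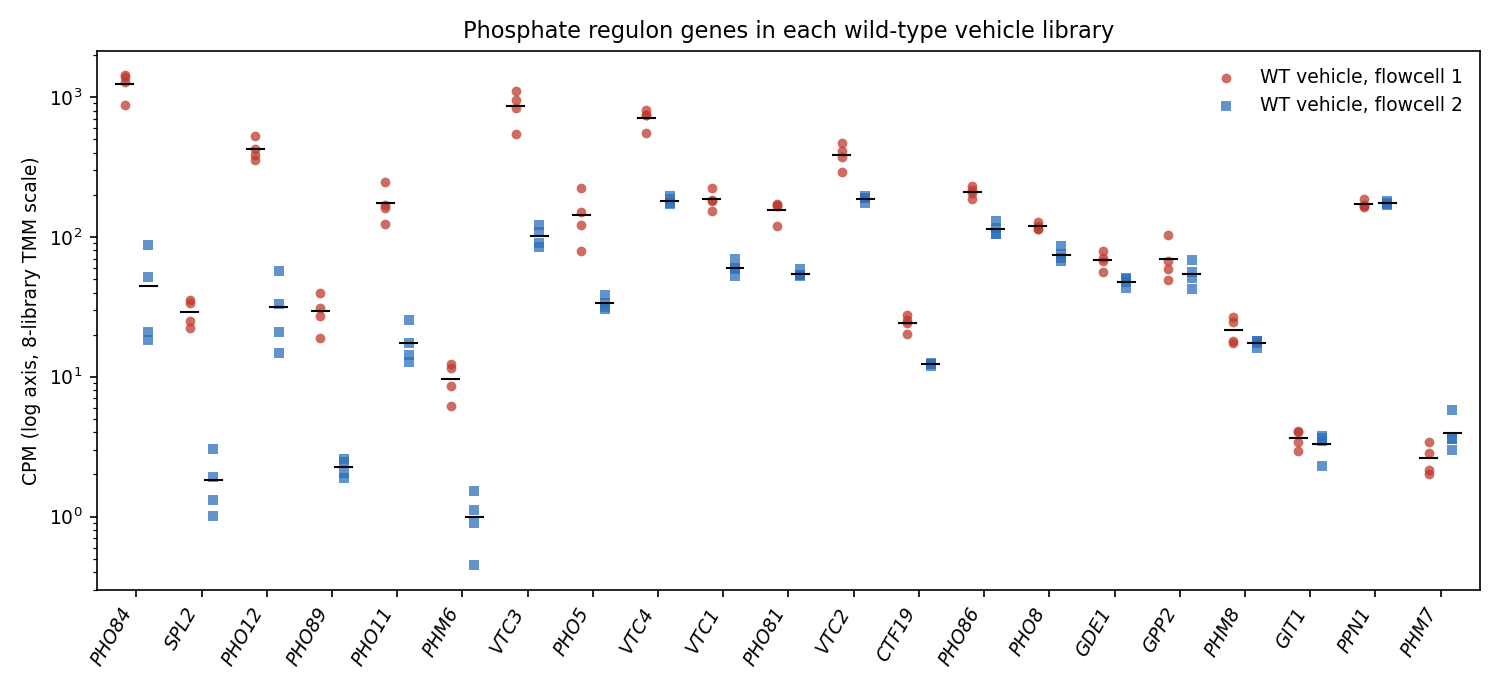
CPM (log axis) of the 21 phosphate regulon genes in each wild-type vehicle library, flowcell 1 as red circles on the left and flowcell 2 as blue squares on the right of each gene, with lines at the group means. For PHO84 the groups lie at 879.6 to 1431 and 18.3 to 87.6 CPM, and the groups are apart for 16 genes.

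Among the transporters, PHO84, the high-affinity proton-coupled phosphate transporter, had the largest difference of any gene called. It had 1386, 1431, 1281 and 879.6 CPM in flowcell 1 replicates 1 to 4, against 20.9, 18.3, 87.6 and 51.3 CPM in flowcell 2 replicates 1 to 4. Even the lowest flowcell 1 library lay far above the highest flowcell 2 library, and within flowcell 2 replicates 3 and 4 were above replicates 1 and 2. The fold change was 28.0 (log2 4.81, SE 0.63, adjusted p = 0.00656, edgeR, higher in 4 of 4 libraries). PHO89, the sodium-coupled phosphate transporter used at alkaline pH, had 31.1, 39.8, 27.3 and 18.9 CPM on flowcell 1, against 2.58, 2.47, 2.06 and 1.90 CPM on flowcell 2. In contrast to PHO84, its flowcell 2 libraries were close to each other, and the fold change was 13 (log2 3.70, SE 0.22, adjusted p = 1.05e-05, edgeR). GIT1, the glycerophosphoinositol transporter, did not pass the test, with 3.62 ± 0.545 and 3.30 ± 0.677 CPM on flowcells 1 and 2 (adjusted p = 0.637, edgeR).

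PHO84 overlaps an annotated antisense noncoding gene, YNCM0001W. That record had 645, 689, 606 and 411 CPM on flowcell 1, against 35.1, 35.8, 66.7 and 45.6 CPM on flowcell 2, and followed PHO84 in being higher in all 4 flowcell 1 libraries (log2 3.68, SE 0.28). The library kit named in the labels does not mark strand, so reads of PHO84 and of its antisense gene cannot be told apart.

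All 4 phosphatase genes of the regulon were called higher. The secreted acid phosphatase PHO5 had 150.2, 222, 122 and 79.0 CPM on flowcell 1, against 30.5, 31.4, 38.5 and 33.5 CPM on flowcell 2, a fold change of 4.29 (log2 2.10, SE 0.31, adjusted p = 0.00762, edgeR). Its flowcell 2 libraries were nearly level, and flowcell 1 replicate 4 was the lowest of its set. PHO11 and PHO12 encode near-identical acid phosphatases whose reads can be split between the copies, so their values are uncertain individually: PHO12 had 422 ± 74.1 and PHO11 175 ± 52.5 CPM on flowcell 1, against 31.4 ± 18.5 and 17.5 ± 5.73 CPM on flowcell 2 (SD, n = 4 each). PHO8, the vacuolar alkaline phosphatase, rose less, to 119 ± 6.52 CPM on flowcell 1, against 74.7 ± 7.70 CPM on flowcell 2 (log2 0.67).

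The regulators were called higher too. SPL2, which restrains low-affinity phosphate uptake, had 33.9, 35.6, 25.2 and 22.4 CPM on flowcell 1, against 1.30, 1.01, 3.06 and 1.93 CPM on flowcell 2. Its flowcell 2 libraries showed the order of PHO84, with replicate 3 highest, and the fold change was 16.1 (log2 4.01, SE 0.34, adjusted p = 0.00064, edgeR). PHO81, the kinase inhibitor at the head of the pathway, had 172, 168, 167 and 119 CPM on flowcell 1, against 53.4, 58.8, 52.3 and 53.4 CPM on flowcell 2 (log2 1.52, SE 0.10, adjusted p = 8.79e-06, edgeR). The first 3 of its flowcell 1 libraries were within a few CPM of each other and replicate 4 lay below them. PHO86, which lets Pho84 leave the endoplasmic reticulum, had 211 ± 18.8 CPM on flowcell 1 and 114 ± 11.8 CPM on flowcell 2 (log2 0.89).

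The 4 VTC genes encode the vacuolar transporter chaperone complex, which makes polyphosphate and moves it into the vacuole, and each was called higher. VTC3 had 959, 1109, 830.5 and 548 CPM on flowcell 1, against 84.4, 90.3, 122 and 108 CPM on flowcell 2, a fold change of 8.53 (log2 3.09, SE 0.23, adjusted p = 0.000328, edgeR). VTC4, the catalytic subunit, had 749, 811, 739 and 549 CPM on flowcell 1, against 174, 171, 196 and 186 CPM on flowcell 2, a fold change of 3.92 (log2 1.97, SE 0.11, adjusted p = 2.29e-06, edgeR). The subunits differed unequally: VTC2, with 386 ± 72.5 and 187 ± 9.68 CPM on flowcells 1 and 2, had the smallest fold of the 4, at 2.06. VTC1, the small membrane subunit, had 186 ± 27.8 CPM on flowcell 1 and 60.2 ± 6.83 CPM on flowcell 2 (fold change 3.09). VTC5, a later-described accessory subunit kept in the signalling list, had 48.7 ± 3.59 and 45.9 ± 1.17 CPM in the same order and was not called.

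Of the 7 other Pho4 targets, 3 were called higher. PHM6, a small protein of unknown function, had 11.5, 12.3, 8.62 and 6.19 CPM on flowcell 1, against 0.902, 0.447, 1.53 and 1.11 CPM on flowcell 2, a fold change of 9.74 (log2 3.28, SE 0.33, adjusted p = 0.000406, edgeR). CTF19, a kinetochore gene transcribed divergently from VTC3 and overlapping another annotated gene, had 24.4 ± 3.12 and 12.3 ± 0.186 CPM on flowcells 1 and 2 (log2 0.99). GDE1, which cleaves glycerophosphocholine, had 68.2 ± 9.86 and 47.9 ± 3.65 CPM (log2 0.51). The uncalled members were PHM7, PHM8, the glycerol phosphatase GPP2 and the polyphosphatase PPN1. PHM7 was the regulon gene with the lowest ratio, with 2.61 ± 0.651 CPM on flowcell 1 and 3.98 ± 1.22 CPM on flowcell 2 (log2 -0.62, adjusted p = 0.0912, edgeR), and PPN1 had 171 ± 9.90 and 174 ± 4.06 CPM.

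Within each set the libraries were not alike. Flowcell 1 replicate 4 was the lowest of its set for PHO84, SPL2, PHO89, PHM6, PHO5 and all 4 VTC genes, and flowcell 2 replicate 3 the highest of its set for PHO84, SPL2, PHO12, PHM6 and VTC3. The 16 calls held when any 1 of the 8 libraries was left out, and the PHO84 log2 fold change then ranged from 4.55 to 5.37.

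The genes that carry the phosphate signal, listed apart from the regulon, differed by small amounts, with log2 fold changes from -0.45 to 0.57. Of 18 such genes, 6 were called higher and 2 lower, with a median log2 fold change of 0.06, against 7.12% higher and 8.35% lower over all genes. The count called higher was 2 without flowcell 1 replicate 3 and 2 without flowcell 2 replicate 4. The transcription factor genes PHO4 and PHO2 had 80.6 ± 17.2 and 49.4 ± 2.95 CPM on flowcell 1 and 75.8 ± 3.88 and 49.4 ± 2.86 CPM on flowcell 2, and neither was called. The cyclin gene PHO80 and the kinase gene PHO85 had 23.7 ± 2.38 and 63.5 ± 6.43 CPM on flowcell 1 and 23.1 ± 1.69 and 67.8 ± 4.34 CPM on flowcell 2, and were not called either.

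Genes of inositol pyrophosphate metabolism were among those called. VIP1, a kinase that makes inositol pyrophosphates, had 280.5, 296, 260.1 and 217 CPM on flowcell 1, against 181, 179, 171 and 177 CPM on flowcell 2 (log2 0.57, SE 0.084, adjusted p = 0.00174, edgeR). DDP1, which removes their pyrophosphate groups, was higher by a log2 of 0.33. IPK1, which makes their precursor, fell to 15 ± 0.929 CPM on flowcell 1, against 20.4 ± 1.24 CPM on flowcell 2 (log2 -0.45). SND3, also known as PHO88, is an endoplasmic reticulum protein required for normal phosphate transport and fell to 452 ± 35.8 CPM on flowcell 1, against 606 ± 74.0 CPM on flowcell 2 (log2 -0.42). The low-affinity transporter genes PHO90 and PHO91 had log2 fold changes of 0.25 and 0.29, and both calls were lost without flowcell 1 replicate 3 and without flowcell 2 replicate 4. PHO87, the third low-affinity transporter gene, had 92.8 ± 4.28 and 97.1 ± 2.37 CPM on flowcells 1 and 2 and was not called.

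**Figure D3:**
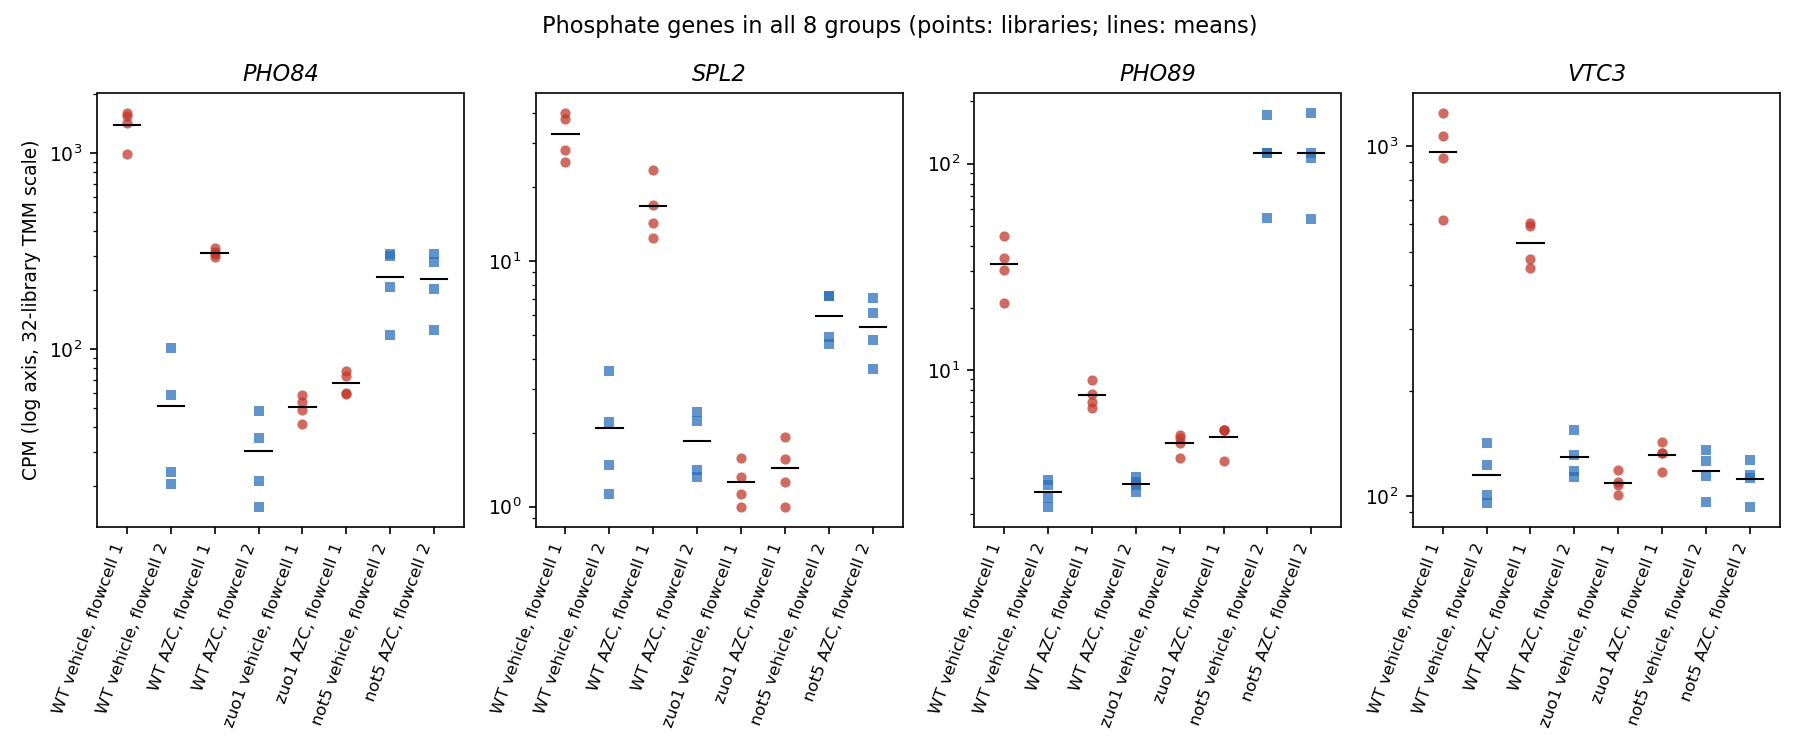
CPM (log axis, scale of all 32 libraries) of PHO84, SPL2, PHO89 and VTC3 in the 8 groups of the series, with points for the libraries and lines for the group means. Wild-type vehicle libraries of flowcell 1 are highest for PHO84, SPL2 and VTC3, and the not5 libraries are highest for PHO89.

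Among all 8 groups of the series, set on one scale from the 32 libraries, wild-type vehicle of flowcell 1 had the highest group mean of PHO84, SPL2, VTC3, VTC4, PHO5, PHO12 and PHM6. PHO84 had 1392 ± 279 CPM in wild-type vehicle of flowcell 1 and 51.1 ± 37.9 CPM in wild-type vehicle of flowcell 2 (SD, n = 4 per group on this scale). Wild-type AZC libraries had 312 ± 14.5 CPM on flowcell 1 and 30.1 ± 14.6 CPM on flowcell 2. Libraries labelled not5, on flowcell 2, had 228 ± 80.9 CPM with AZC and 232 ± 88.2 CPM with vehicle. Libraries labelled zuo1, sequenced on flowcell 1, had 67.3 ± 9.25 CPM with AZC and 50.7 ± 7.45 CPM with vehicle. The zuo1 libraries shared flowcell 1 with the high wild-type vehicle libraries and lay near the level of the wild-type libraries of flowcell 2. They differ in genotype and come from cultures of their own, so they cannot separate flowcell from culture set. From high to low the group means ran from wild-type vehicle and then AZC of flowcell 1, through not5 vehicle and AZC, to zuo1 AZC, wild-type vehicle of flowcell 2, zuo1 vehicle and wild-type AZC of flowcell 2. The not5 libraries had 125, 305, 204 and 277 CPM with AZC and 118, 305, 208 and 299 CPM with vehicle. They overlapped each other, and the highest of them reached the wild-type AZC libraries of flowcell 1. Both zuo1 groups and wild-type AZC of flowcell 2 overlapped wild-type vehicle of flowcell 2. Differences between these neighbours were not tested. ZUO1 was listed at 0 in 7 of the 8 zuo1 libraries and at 0.0943 CPM in the other, and NOT5 at 0 in all 8 not5 libraries.

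VTC3 was high in both wild-type groups of flowcell 1. It had 964 ± 265 CPM in wild-type vehicle and 529.8 ± 78.2 CPM in wild-type AZC on flowcell 1, and in the other 6 groups the mean lay between 109 CPM in zuo1 vehicle and 131 CPM in zuo1 AZC. PHO89 did not follow that order. It had 112 ± 49.8 CPM in not5 AZC and 113 ± 48.1 CPM in not5 vehicle, both above 32.8 ± 9.72 CPM in wild-type vehicle of flowcell 1, while wild-type vehicle of flowcell 2 had 2.56 ± 0.342 CPM. SPL2 had 32.7 ± 7.20 and 16.7 ± 4.84 CPM in wild-type vehicle and AZC on flowcell 1, and means of 1.25 to 5.97 CPM in the other 6 groups. These levels across the 8 groups are described and were not tested.

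The same split was tested in the wild-type AZC libraries, which share no library with the vehicle comparison. These comparisons are not independent, because same-numbered vehicle and AZC libraries of a flowcell deviated together (r 0.21 to 0.58 across genes). Of 5778 genes, 510 (8.83%) were called, 303 (5.24%) higher on flowcell 1 and 207 (3.58%) lower, by the same edgeR test. With library totals in place of the normalization factors, 72.5% of calls were higher, against 59.4% here. This count rested on single libraries: 22 without flowcell 1 replicate 1, 28 without flowcell 1 replicate 3, 1174 without flowcell 1 replicate 4, and 39, 52 and 22 without flowcell 2 replicates 1, 2 and 4. The phosphate regulon was again called in 1 direction, with 16 of 21 higher and 0 lower, and 11 to 16 higher when each library was left out. The median log2 fold change of the regulon was 0.80, against 0.00 over all genes. PHO84 had 274 ± 11.6 CPM on flowcell 1 and 26.0 ± 12.6 CPM on flowcell 2 on the scale of the 8 AZC libraries (log2 3.40, SE 0.33, adjusted p = 0.00276, edgeR), and SPL2 differed by a log2 of 3.20. Among the 15 genes at least 2-fold higher in vehicle, 14 were also called higher in AZC, and among the 9 at least 2-fold lower 2 were called lower. Over all calls, 163 genes were called in both comparisons, 18.3% of the vehicle calls and 32% of the AZC calls, of which 69 were higher in both, 91 lower in both and 3 opposite.

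**Figure D4:**
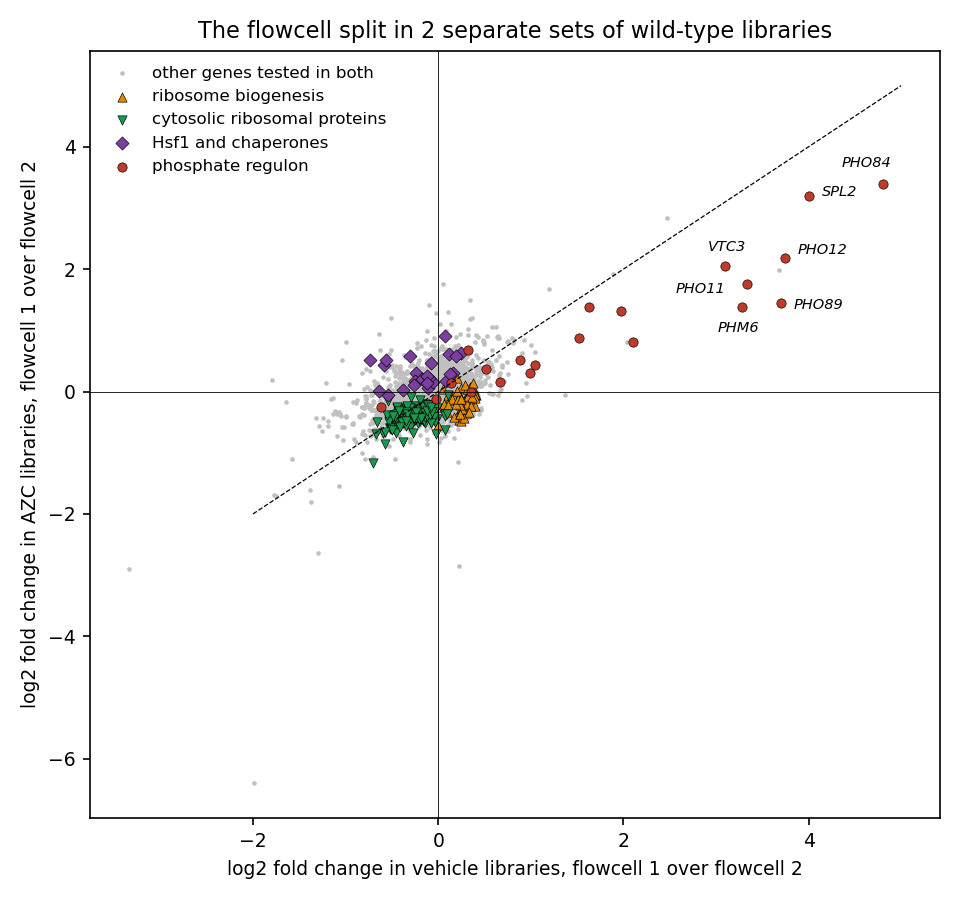
Log2 fold change of flowcell 1 over flowcell 2 in the wild-type vehicle libraries (horizontal axis) and in the wild-type AZC libraries (vertical axis), each point a gene, with the phosphate regulon and other lists marked. PHO84 lies at 4.81 and 3.40, and PHO89 at 3.70 and 1.45.

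Whether the split differed between vehicle and AZC was tested as an interaction in the 16 wild-type libraries. The replicate numbers were taken to pair vehicle with AZC libraries within a flowcell, which replicates 1 and 2 of flowcell 1 did not bear out. With the number as a block 498 of 5808 genes (8.57%) were called. Of these 301 (5.18% of those tested) had a higher log2 fold change of flowcell 1 over flowcell 2 in vehicle than in AZC, and 197 (3.39%) a lower one. Without the block 76 (1.31%) were called, all of them among the 498 and in the same direction; 47 of the 76 (61.8%) had the higher log2 fold change in vehicle, which was 43.4% with library totals. Of the 21 phosphate regulon genes, 15 were called with a higher log2 fold change in vehicle with the block and 8 without it, and 0 with a lower one. The count without the block was 2 to 5 when any 1 of 12 of the 16 libraries was left out, and 8 to 10 without vehicle flowcell 1 replicate 4, AZC flowcell 1 replicate 4, vehicle flowcell 2 replicate 3 or AZC flowcell 2 replicate 3. PHO89 had the firmest of these, with a log2 fold change of 3.70 in vehicle and 1.45 in AZC (difference 2.27, SE 0.25, adjusted p = 0.000204, edgeR), and kept its call without any 1 library. PHO84 differed by 1.43 between vehicle and AZC without the block (adjusted p = 0.257, edgeR) and by 1.56 with it (adjusted p = 0.00791, edgeR).

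Beyond phosphate, some genes of sulfur uptake and methionine metabolism were higher on flowcell 1. Of 29 tested, 8 were called higher and 1 lower, with a median log2 of 0.17, against 7.12% and 8.35% over all genes. The 1 lower call was lost when any of 5 libraries was left out, flowcell 1 replicates 2 and 3 and flowcell 2 replicates 2, 3 and 4. SAM2, an S-adenosylmethionine synthetase, had 209.9, 236, 203 and 189.7 CPM on flowcell 1, against 128, 139, 137 and 126 CPM on flowcell 2 (log2 0.66, SE 0.073, adjusted p = 0.000318, edgeR). MUP1, the high-affinity methionine permease, had 308, 359, 327 and 251 CPM on flowcell 1, against 203, 218, 231 and 200.4 CPM on flowcell 2 (log2 0.55). Neither pair of groups overlapped. CBF1, a factor that binds CACGTG at the sulfur genes, had 85.2 ± 6.63 and 60.1 ± 1.70 CPM on flowcells 1 and 2 (log2 0.50).

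Pyrimidine synthesis had 6 of 12 genes called higher and 1 lower, against 7.12% and 8.35% over all genes, and the count called higher was 4 to 6 when each library was left out. URA2, which carries out the first steps of the pathway, had 1013, 955, 966 and 789 CPM on flowcell 1, against 621, 621, 556 and 571 CPM on flowcell 2 (log2 0.65, SE 0.081, adjusted p = 0.00064, edgeR). The 1 lower call, URA10, was lost without flowcell 1 replicate 2, flowcell 2 replicate 3 or flowcell 2 replicate 4.

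Hexose transport had 2 of 20 genes called higher and 0 lower, a share close to the 7.12% over all genes. The transporter gene HXT2 had 251, 306, 281 and 209 CPM on flowcell 1, against 153, 138, 137 and 108 CPM on flowcell 2, so that the groups did not overlap (log2 0.96, SE 0.13, adjusted p = 0.00145, edgeR). HXT4, another hexose transporter, differed by a log2 of 0.59. REG2, a regulatory subunit of the phosphatase that acts in glucose repression, had 9.33 ± 1.67 and 4.93 ± 0.673 CPM on flowcells 1 and 2 (log2 0.92).

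Single respiratory genes were among the clearer differences. CYC1, cytochrome c, had 20.9, 19.4, 15.3 and 16.2 CPM on flowcell 1, against 8.18, 10.2, 8.61 and 7.93 CPM on flowcell 2 (log2 1.04, SE 0.12, adjusted p = 0.000406, edgeR), and NDE1, the external mitochondrial NADH dehydrogenase, had 457 ± 71.0 and 280.4 ± 27.9 CPM on flowcells 1 and 2 (log2 0.71). The list of tricarboxylic acid cycle and respiration genes as a whole had a median log2 of 0.03, with 9 of 47 called higher and 0 lower, against 7.12% and 8.35% over all genes. The count called higher was 4 or 5 without flowcell 1 replicate 3 or flowcell 2 replicates 1, 2 or 4. The count called lower was 5 without flowcell 1 replicate 4, 1 without flowcell 1 replicate 1 or 2, and 1 with DESeq2. Of 18 hypoxic and anaerobic genes 4 were called lower and 1 higher, against 8.35% and 7.12% over all genes. Among the lower were CYC7, ANB1 and COX5B, with log2 fold changes of -1.16, -1.03 and -0.93. That list had 0 to 6 called lower when each library was left out.

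Of 26 iron regulon genes, targets of the transcription factors Aft1 and Aft2, 4 were called higher and 0 lower, against 7.12% and 8.35% over all genes. The median log2 was 0.29, against 0.00 over all genes, and 24 of the 26 were positive. The count called higher was 2 without flowcell 1 replicate 3 or 4 or flowcell 2 replicate 2, 3 or 4, and 7 without flowcell 1 replicate 2, and the summed level of the list overlapped, with 1971 to 3365 CPM on flowcell 1 and 1721 to 2331 CPM on flowcell 2. FRE1, a plasma membrane iron and copper reductase, had 494, 485, 570.1 and 697 CPM on flowcell 1, against 351, 260.0, 273 and 343 CPM on flowcell 2 (log2 0.87, SE 0.13, adjusted p = 0.00284, edgeR). HMX1, heme oxygenase, was higher by a log2 of 0.76. Outside the list, CTR1, the copper transporter, and ZRT1, the high-affinity zinc transporter, were higher by log2 values of 0.54 and 0.38. Their own lists did not lean this way, with a median log2 of -0.17 over 9 copper genes and -0.08 over 17 zinc genes. In these lists 1 and 2 genes were called higher and 0 lower, against 7.12% and 8.35% over all genes. FRE1 and CTR1 were not called when the 16 wild-type libraries or all 32 were fitted together.

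Ribosome biogenesis genes and ribosomal protein genes differed in opposite directions by small amounts. All 65 ribosome biogenesis genes had a positive log2 fold change, with a median of 0.25 and a range of 0.00 to 0.41, and 48 were called higher and 0 lower, against 7.12% and 8.35% over all genes. KRE33, an acetyltransferase of the small-subunit precursor, had 453, 484, 444 and 418 CPM on flowcell 1, against 357, 331, 329 and 348 CPM on flowcell 2 (log2 0.40, SE 0.062, adjusted p = 0.00238, edgeR). ERB1, a factor of large-subunit maturation, had 419.8 ± 11.0 and 319.7 ± 10.7 CPM on flowcells 1 and 2 (log2 0.39). The number called was 28 without flowcell 2 replicate 4 and 31 without flowcell 2 replicate 2, 25 when the 16 wild-type libraries were fitted together, and 1 when all 32 were.

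Of 135 cytosolic ribosomal protein genes, many of them near-identical pairs, 63 were called lower and 0 higher, with a median log2 of -0.26, against 8.35% and 7.12% over all genes. RPS31, a fusion of ubiquitin and a ribosomal protein, had 3344, 2706, 2355 and 2448 CPM on flowcell 1, against 3769.5, 4000.4, 4791 and 4666 CPM on flowcell 2 (log2 -0.67, SE 0.12, adjusted p = 0.00433, edgeR), so that the groups did not overlap. The number called lower was 25 without flowcell 1 replicate 3, 28 without flowcell 2 replicate 4, 39 without flowcell 1 replicate 2 and 40 without flowcell 2 replicate 3. In the AZC libraries 51 were called lower, against 3.58% over all genes (0 or 1 without flowcell 1 replicate 1 or 3 or flowcell 2 replicate 1, 2 or 4, and 80 and 82 without flowcell 1 replicates 4 and 2), and the median log2 was -0.42. There 0 ribosome biogenesis genes were called higher and 0 lower, with a median of -0.14, although DESeq2 called 9 of them lower.

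Coding length moved with these lists. Over 5707 coding genes the log2 fold change correlated with log2 coding length at r = 0.34, genes not being independent replicates. The median coding length was 1659 bases for genes called higher and 616.5 for genes called lower, against 1236 over all coding genes tested. With a GC and length offset the ribosomal protein median was -0.09, with 21 called lower and 3 higher, the ribosome biogenesis median 0.23, with 55 called higher, and the phosphate median 1.42. Over all coding genes the correlation with coding length was then -0.00456. Of the 893 calls 661 were also made with the offset, as were all 24 of at least 2-fold, and among 122 called genes followed one by one 109 kept their call and 13 lost it.

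**Figure D5:**
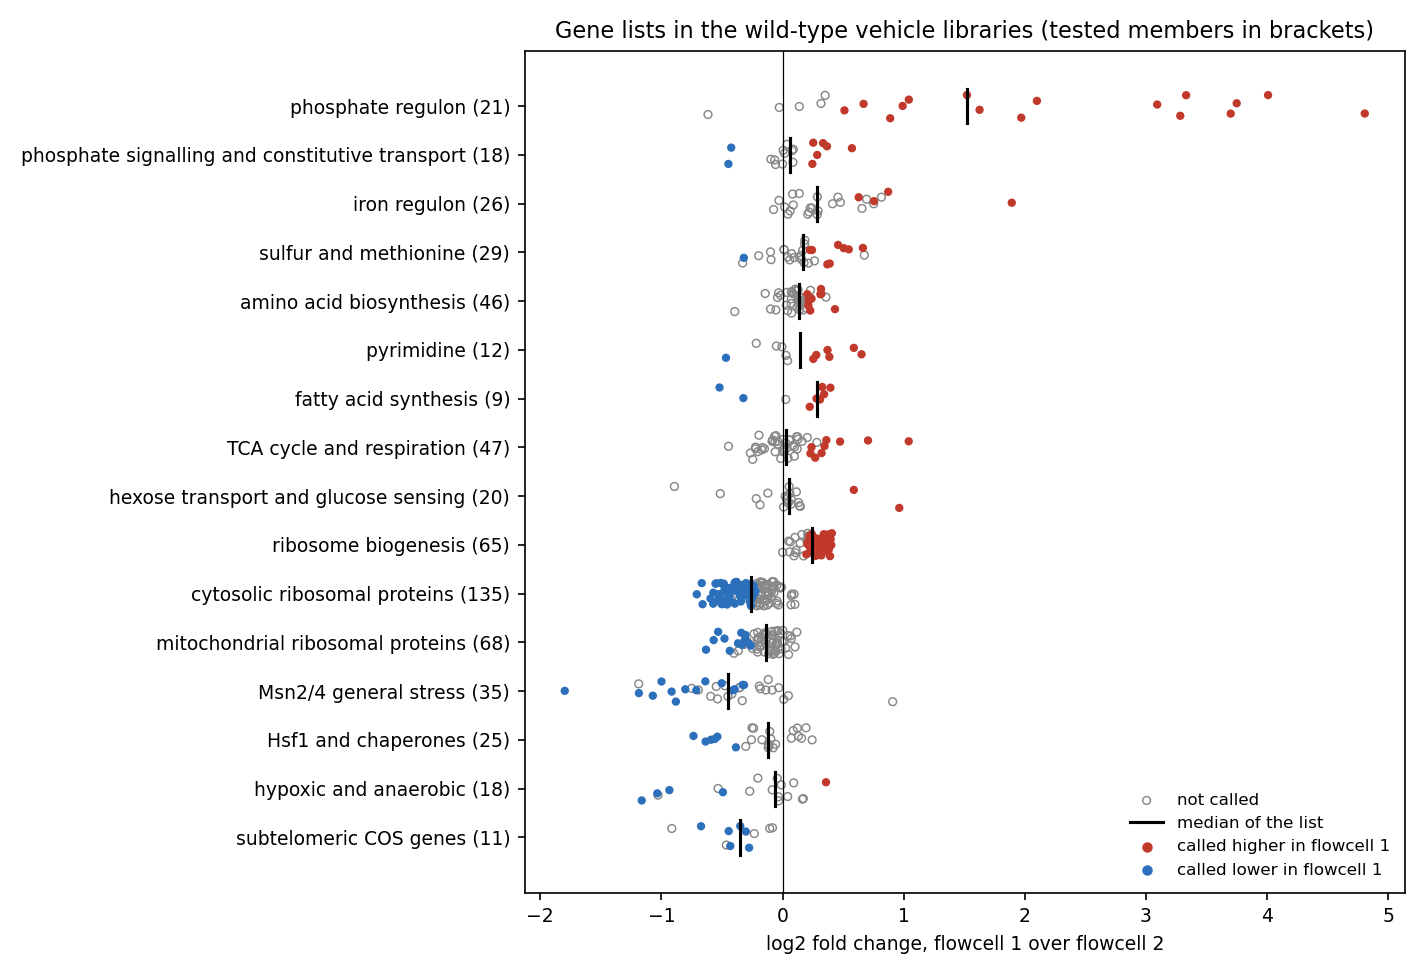
Log2 fold change (horizontal axis, flowcell 1 over flowcell 2) of the tested members of 16 gene lists, one row per list with the number tested in brackets, members called higher in red, called lower in blue and not called as open circles, with a line at each list's median. The phosphate regulon has its median at 1.52, and the Msn2/4 general stress list its median at -0.45.

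Part of the general stress programme was lower on flowcell 1. Of 35 general stress genes, targets of the transcription factors Msn2 and Msn4, 14 were called lower and 0 higher, with a median log2 of -0.45, against 8.35% and 7.12% over all genes. The summed level of the list overlapped, with 1443 to 1969 CPM on flowcell 1 and 1933 to 2667 CPM on flowcell 2. The count was 9 without flowcell 1 replicate 3 and 12 to 17 without each other library. SOL4, a 6-phosphogluconolactonase-like gene, had 2.34, 2.34, 2.02 and 3.37 CPM on flowcell 1, against 3.85, 7.78, 4.39 and 4.95 CPM on flowcell 2 (log2 -1.07, SE 0.24, adjusted p = 0.0121, edgeR). STF2, which protects dried cells, had 7.32, 4.14, 4.34 and 5.61 CPM on flowcell 1, against 8.79, 13.5, 9.42 and 11.0 CPM on flowcell 2 (log2 -1.0). In both genes flowcell 2 replicate 2 was the highest library. TSL1, a subunit of trehalose synthase, had 22.5, 26.4, 32.1 and 47.8 CPM on flowcell 1, against 64.4, 96.7, 64.6 and 66.4 CPM on flowcell 2 (log2 -1.19, adjusted p = 0.0225, edgeR), and lost its call without flowcell 1 replicate 2 or 3 or flowcell 2 replicate 4, where its adjusted p reached 0.0746. HSP12, a membrane heat shock protein and a member of the same programme, varied more within each set than between them, with 26.1, 20.3, 24.4 and 108 CPM on flowcell 1 and 18.4, 121, 25.4 and 38.1 CPM on flowcell 2.

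Chaperone and heat shock factor genes had 6 of 25 called lower and 0 higher, against 8.35% and 7.12% over all genes, and 6 to 8 lower when each library was left out. HSP104, the disaggregase, had 174, 233, 188 and 211 CPM on flowcell 1, against 299, 311, 294 and 309.6 CPM on flowcell 2 (log2 -0.59, SE 0.083, adjusted p = 0.00144, edgeR). HSP42, a small heat shock protein, had 22.6, 24.1, 26.8 and 28.1 CPM on flowcell 1, against 37.3, 44.7, 42.5 and 44.7 CPM on flowcell 2 (log2 -0.73, SE 0.086). All 4 flowcell 1 libraries were below all 4 of flowcell 2 in both genes. The coactivator gene MBF1 and the mitochondrial disaggregase gene HSP78 fell by a log2 of 0.64 and 0.56.

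AZC is a proline analog that is built into proteins and misfolds them. In the AZC libraries 6 of the 25 chaperone genes were called higher on flowcell 1 and 0 lower, against 5.24% and 3.58% over all genes. The 6 became 0 without flowcell 1 replicate 1 or 3 or flowcell 2 replicate 1, 2 or 4, 1 without flowcell 1 replicate 2, 11 without flowcell 1 replicate 4, and 12 with DESeq2 or with library totals. HSP42 had a log2 fold change of 0.51 in AZC (SE 0.14, adjusted p = 0.0463, edgeR), a call lost without any 1 of 6 of the 8 AZC libraries, where the adjusted p reached 0.127. Its log2 fold change in vehicle minus that in AZC was -1.23 (SE 0.17, adjusted p = 0.00243, edgeR), and this call held without any 1 of the 16 libraries. On the scale of all 32 libraries it had 6802 ± 751 and 4848 ± 888 CPM in wild-type AZC of flowcells 1 and 2, and 28.4 ± 2.84 and 48.1 ± 3.95 CPM in wild-type vehicle. HSP104 and HSP78 had values of -1.0 and -1.06 for vehicle minus AZC, the first of which was not called without AZC flowcell 2 replicate 4 (adjusted p = 0.0508, edgeR) and the other without any 1 of 8 of the 16. With the replicate block 10 of the 25 chaperone genes were called with a lower log2 fold change in vehicle than in AZC and 0 with a higher one, against 3.39% and 5.18% over all genes. Without the block 4 and 0 were, against 0.499% and 0.809%, and the 4 became 1 or 2 without vehicle flowcell 1 replicate 1 or 3, vehicle flowcell 2 replicate 2 or 4, AZC flowcell 1 replicate 1 or AZC flowcell 2 replicate 1, 2 or 4, 7 without AZC flowcell 2 replicate 3 and 11 without AZC flowcell 1 replicate 4.

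PDR12, the weak acid efflux pump, was among the other lower genes and had 65.5, 60.3, 60.4 and 56.2 CPM on flowcell 1, against 129, 120.2, 124 and 144 CPM on flowcell 2, a fold change of 2.13 in favour of flowcell 2 (log2 -1.09, SE 0.072, adjusted p = 6.04e-06, edgeR). Flowcell 2 exceeded flowcell 1 in AZC as well (log2 -0.73, adjusted p = 0.000384, edgeR). GLN1, glutamine synthetase, had 210.3, 187, 246 and 279 CPM on flowcell 1, against 418, 362, 424 and 429.6 CPM on flowcell 2 (log2 -0.83, SE 0.11, adjusted p = 0.00141, edgeR). PNC1, nicotinamidase and a member of the general stress list, had 60.9 ± 11.8 and 112 ± 14.8 CPM on flowcells 1 and 2 (log2 -0.88), and YOP1, which shapes the endoplasmic reticulum, had 366 ± 15.8 and 659 ± 83.0 CPM (log2 -0.85). YPC1, an alkaline ceramidase, and VPS68, a vacuolar sorting protein, fell by 1.01 and 0.85 on the log2 scale.

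Subtelomeric COS genes, a multigene family whose reads can be split between copies, had 6 of 11 called lower and 0 higher, with a median log2 of -0.35, against 8.35% and 7.12% over all genes. COS8 had 43.9 ± 1.68 and 59.2 ± 5.54 CPM on flowcells 1 and 2 (log2 -0.43), and in AZC the log2 was -0.53.

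Haploid-specific genes had 2 of 7 called lower and 0 higher, against 8.35% and 7.12% over all genes. They were RME1, at log2 -0.71, and STE18, at -0.42. With the GC and length offset STE18 was at -0.21 and not called (adjusted p = 0.0788, edgeR).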

How the data were processed

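Per the labels' protocols, polyadenylated RNA was enriched on oligo-dT and turned into unstranded libraries. Estimated counts per gene were deposited by the authors in 1 table of 6085 records by 32 libraries. FastQC 0.12.1, Salmon 1.10.2 and build R64 appear in the submitters' processing notes, and 79.1% of the expected counts are not whole, so they were rounded to whole numbers here. Records were matched to RefSeq R64 by transcript identifier (6084 of 6085, the other holding at most 0.0179% of a library).

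Genes were filtered with filterByExpr and tested with edgeR 4.0.16 (TMM factors, robust quasi-likelihood F test, Benjamini-Hochberg threshold 0.05) in R 4.3.3, on the 8 vehicle libraries, on the 8 AZC libraries, and on all 16 for the interaction. CPM are on the TMM scale. Fold changes are flowcell 1 over flowcell 2. Single values per library were compared with exact two-sided permutation tests. DESeq2 1.42.0, limma-voom (limma 3.58.1), other scalings, filters, depths, offsets and libraries left out were tried as alternatives, and the scripts were tested on simulated data. Counting error is small beside the spread between libraries at totals of 22.1 M or more.

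Same-numbered vehicle and AZC libraries of a flowcell deviated together (r across 5168 genes 0.24, 0.21, 0.51 and 0.48 on flowcell 1 and 0.27, 0.58, 0.29 and 0.28 on flowcell 2), so the numbers were taken to pair them. Replicates 1 and 2 of flowcell 1 did not bear this out. There vehicle replicate 1 had a higher r with AZC replicate 2 (0.477), and vehicle replicate 2 had nearly the same r with AZC replicate 1 (0.205) as with AZC replicate 2 (0.206).

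The groups, gene lists and genes were chosen with earlier results of these data known, the large PHO84 difference among them. Named genes were the 12 largest called changes each way with at least 5 CPM, no overlap of groups and no overlapping gene, all phosphate genes, up to 4 called genes of each other list, markers, the 3 extreme interaction calls each way, and the 4 most variable genes of each set. Not all of them are printed.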

Additional observations from a re-analysis of the deposited data

Results flagged for a closer look

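Among 76 groups of 4 libraries examined for a library far from the other 3, 5 had one, and chance gives about 1 in 20. PHO81 had 119 CPM in flowcell 1 replicate 4, against 167 to 172 CPM in the other flowcell 1 libraries, the replicate that was also lowest for most phosphate genes. YPC1 had 12.7 CPM in the same library, against 8.62 to 8.81 CPM. In flowcell 2 replicate 2 TSL1 had 96.7 CPM, against 64.4 to 66.4 CPM, and GLN1 had 362 CPM, against 418 to 430 CPM. Ribosomal RNA records took 3.95% of the counts in flowcell 2 replicate 3, against 0.626 to 0.963% in the others of its set.

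The flowcell difference itself differed between vehicle and AZC for 23 of the named genes, by the edgeR interaction test without the replicate block. Over all genes tested, 76 of 5808 (1.31%) were called. Named genes include the 3 extreme interaction calls each way and others called in vehicle, so the 23 is a list and not a share to compare. Values here are the log2 fold change of flowcell 1 over flowcell 2 in vehicle minus that in AZC. Positive values, a higher log2 fold change in vehicle, were found for the phosphate genes PHO89 (2.27), PHM6 (1.92), PHO11 (1.6), CTF19 (0.71), VTC4 (0.67), PHO81 (0.66), VTC2 (0.62) and PHO8 (0.52). The antisense record YNCM0001W, whose reads cannot be told apart from those of PHO84, had 1.71. Positive values were also found for the hexose transporter HXT2 (1.05), for MMP1, SAM2 and MUP1 of methionine uptake and use (0.78, 0.68 and 0.59), for ERB1 (0.65), for the fatty acid desaturase OLE1 (0.62) and for the biotin transporter VHT1 (0.45). Negative values were found for ARG3 (-1.49), ASI3 (-1.29), HSP42 (-1.23), HSP78 (-1.06), HSP104 (-1.0), SRL3 (-0.79) and PNC1 (-0.73). PHO89, CTF19, HSP42 and YNCM0001W kept this call without any 1 of the 16 libraries. HSP104 lost it without AZC flowcell 2 replicate 4, and HSP78 without any 1 of 8 libraries. All the other genes named here for a difference between vehicle and AZC, PHO11 among them, lost it without any 1 of 10 to 13 libraries.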

How the results depend on the processing

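The 893 vehicle calls became 686 to 1208 under the other settings on these libraries, 1208 of them with DESeq2, which called all 893, and 441 with all 32 libraries in 1 fit, where 32% were higher in place of 46%. Leaving out 1 library gave 397 to 1152. The 24 calls of at least 2-fold became 16 to 33. Replicate numbers did not pair the 2 vehicle sets (r -0.069, 0.018, 0.027 and 0.014), and the replicate block gave 911 calls there, without PHO5, and 501 among AZC libraries. DESeq2 gave 936 AZC calls, and leaving out 1 library 22 to 1174. The 76 interaction calls became 356 with DESeq2, 498 with the replicate block within flowcell, and 5 to 517 without 1 library. The phosphate regulon had 15 to 17 genes called higher throughout, and PHM7 was called lower by DESeq2, with the GC and length offset and without flowcell 1 replicate 4. The difference in the ribosomal RNA share ranged from -0.453 to 0.708 points and that of the 10 most abundant genes from -0.135 to 0.977 points without 1 library (0.204 and -0.0416 without flowcell 1 replicate 4, -0.0793 without flowcell 2 replicate 4). The cause of these shifts was not tested. Flowcell 2 was sequenced more deeply, and thinning it to the depth of flowcell 1 gave 833 calls.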

Other observations

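Fatty acid, amino acid and mitochondrial genes held smaller differences. Of 9 fatty acid genes 6 were called higher on flowcell 1 and 2 lower, against 7.12% and 8.35% over all genes, but 3 higher without flowcell 1 replicate 3 and 2 without flowcell 2 replicate 4. FAA4, an acyl-CoA synthetase, had 731 ± 34.2 and 582 ± 47.5 CPM on flowcells 1 and 2 (log2 0.33), and the elongase ELO1 had 207 ± 17 and 296 ± 35.1 CPM (log2 -0.52). Amino acid biosynthesis had 9 of 46 called higher and 0 lower, against 7.12% and 8.35% over all genes, but 3 higher, a share near that over all genes, without flowcell 1 replicate 3, flowcell 2 replicate 2 or flowcell 2 replicate 4. HIS1, the first enzyme of histidine synthesis, kept its call throughout, with 374 ± 43.2 and 277 ± 30.8 CPM (log2 0.43). MRPL50, a mitochondrial ribosomal protein, had 12.4 ± 1.32 and 19.1 ± 0.638 CPM (log2 -0.63), and 12 of 68 such genes were called lower and 0 higher, against 8.35% and 7.12% over all genes, but 4 to 7 of them without flowcell 1 replicate 3 or flowcell 2 replicates 3 or 4 and 19 without flowcell 1 replicate 4. With the GC and length offset the mitochondrial ribosomal genes MRPL39 and MRP8 lost their calls, while MRPL50 and MRP2 kept theirs. Of 26 ergosterol genes 2 were called higher and 2 lower, shares near the 7.12% and 8.35% over all genes, and the median log2 was 0.06. ERG28 and ERG2 had log2 fold changes of -0.79 and -0.45, and ERG13 and HMG1 of 0.28 and 0.21.

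Some records varied widely between the libraries of a set. The signal recognition particle RNA SCR1 had 162, 24.4, 40.6 and 9.20 CPM on flowcell 1 and 21.8, 21.1, 564 and 98.0 CPM on flowcell 2. The transposon record YMR051C, one of many near-identical copies, had 25.8, 0.00, 8.41 and 16.1 CPM on flowcell 1 and 20.5, 29.5, 88.4 and 59.0 CPM on flowcell 2, where a listed 0 may be a failed split between copies. TIS11, which degrades messages when iron is short, had 23.0, 9.19, 37.2 and 30.6 CPM on flowcell 1 and 10.6, 4.47, 6.61 and 5.19 CPM on flowcell 2 (log2 1.89, adjusted p = 0.0446, edgeR), and lost its call without 6 of the 8 libraries.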
